A study of Mus musculus with 36 samples.

Results

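The early genes of the AP-1, EGR and MYC families were followed across 4 primary mouse cell types exposed to a ketone body or to butyrate. The group comprised 10 genes taken by symbol from the 54347 genes of the count table, namely *Fos*, *Fosb*, *Fosl1*, *Fosl2*, *Jun*, *Junb*, *Jund*, *Egr1*, *Egr2* and *Myc*. All 10 passed the filter on low counts and were among the 15340 genes tested. RNA was sequenced from adipocytes, macrophages, myotubes and hepatocytes, which gave 36 libraries in 12 groups of 3. Each cell type was cultured for 6 h with PBS as control, with 5 mM (R)-3-hydroxybutyrate sodium salt (βOHB) or with 5 mM sodium butyrate. All cells came from male wild-type mice labelled C57Bl/6. The study's methods give the hepatocyte donors as C57BL/6NHsd and place the isolation of some primary cells in Munich, without saying which. The adipocytes were differentiated in culture from stromal cells of inguinal fat pooled from several C57BL/6 animals, the macrophages were grown from bone marrow with L929-conditioned medium, the myotubes were fused from hindlimb muscle precursors, and the hepatocytes were isolated by collagenase perfusion and kept in Williams E medium. Cell type therefore cannot be told apart from medium, isolation, substrain or site. The labels do not say whether the 3 libraries of a group came from separate cultures or animals, so all p-values below measure the spread between these libraries only.

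FOS and JUN proteins pair through leucine zippers into the transcription factor AP-1, and JUN proteins can also pair with each other. EGR proteins are zinc finger transcription factors, and MYC binds DNA together with MAX and drives genes of ribosome biogenesis and growth. Many of these genes are immediate early genes, which are switched on within minutes of growth factor, cytokine or stress signals without new protein synthesis and whose mRNAs are short-lived.

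The promoter windows of 4 members are shown because the genes moved in different directions with butyrate: *Fosb* and *Egr2* rose in all 4 cell types, *Fos* rose in 3 and fell in macrophages, and *Fosl2* fell in all 4. RefSeq windows (GRCm38.p6) of 250 bases before to 50 after a transcription start were found for 7 of the 10 members. Capitals mark the motifs found on either strand: TATA box (TATAAA), GC box (GGGCGG) and the CArG box bound by serum response factor.
*Fos*, chr12:85473640-85473939, plus strand: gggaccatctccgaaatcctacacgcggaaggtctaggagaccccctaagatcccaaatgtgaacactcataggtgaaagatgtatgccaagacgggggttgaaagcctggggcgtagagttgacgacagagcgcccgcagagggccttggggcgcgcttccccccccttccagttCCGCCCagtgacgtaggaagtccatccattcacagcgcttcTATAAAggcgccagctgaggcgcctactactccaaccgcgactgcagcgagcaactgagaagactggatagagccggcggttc
*Fosb*, chr7:19309996-19310295, minus strand: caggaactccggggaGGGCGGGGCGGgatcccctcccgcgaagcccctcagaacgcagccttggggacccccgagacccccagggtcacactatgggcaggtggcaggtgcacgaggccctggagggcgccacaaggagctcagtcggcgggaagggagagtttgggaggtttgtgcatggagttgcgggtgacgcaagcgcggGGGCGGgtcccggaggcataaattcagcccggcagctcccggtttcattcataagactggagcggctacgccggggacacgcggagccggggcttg
*Egr2*, chr10:67537619-67537918, plus strand: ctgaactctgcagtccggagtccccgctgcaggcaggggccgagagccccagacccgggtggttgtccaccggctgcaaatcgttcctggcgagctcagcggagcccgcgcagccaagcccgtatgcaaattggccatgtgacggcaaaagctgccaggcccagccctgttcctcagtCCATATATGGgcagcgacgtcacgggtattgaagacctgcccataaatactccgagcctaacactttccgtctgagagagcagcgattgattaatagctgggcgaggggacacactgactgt
*Fosl2*, chr5:32136222-32136521, plus strand: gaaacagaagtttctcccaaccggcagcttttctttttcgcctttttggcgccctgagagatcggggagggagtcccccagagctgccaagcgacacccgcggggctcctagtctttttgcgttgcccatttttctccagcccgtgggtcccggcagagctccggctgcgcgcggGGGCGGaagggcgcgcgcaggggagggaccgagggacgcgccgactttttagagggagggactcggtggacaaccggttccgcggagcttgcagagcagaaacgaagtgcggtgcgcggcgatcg
In the *Fos* window the TATA box began 33 bases upstream of the start and a GC box 74 bases upstream. The *Fosb* window held 3 GC boxes, 235, 230 and 46 bases upstream, the *Egr2* window a CArG box 72 bases upstream, and the *Fosl2* window a GC box 75 bases upstream. The 2 GC boxes of *Fosb* farthest from the start overlap each other. The *Egr2* and *Fosl2* windows belong to starts inside the annotated span of the gene. Of 32851 windows of the same length, 13.6% held the TATA box, 35.7% the GC box and 1.63% the CArG box. The AP-1 motifs TGACTCA and TGACGTCA, present in 5.20% and 1.79% of all windows, were not found in the windows of the 7 members. The EGR motif (GCGTGGG, 5.04% of windows) was found 81 bases upstream of *Junb* and the E-box bound by MYC (CACGTG, 7.15%) 27 bases upstream of another *Egr2* start. All motifs were searched on both strands, and the matches are a description of letters only.

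The cell types carried their own markers. In control libraries *Adipoq* (adiponectin) stood at 678 to 838 CPM in adipocytes, *Csf1r* (the receptor for macrophage colony-stimulating factor) at 1412 to 1471 CPM in macrophages, *Myh3* (embryonic myosin heavy chain) at 7863 to 9929 CPM in myotubes and *Alb* (albumin) at 27340 to 29210 CPM in hepatocytes. CPM are counts scaled to the library size after TMM normalisation. The summed markers of the cell type itself went with butyrate from 7637 to 8322 CPM to 6116 to 7474 CPM in adipocytes. They went from 16960 to 17130 CPM to 10520 to 11060 CPM in macrophages and from 20520 to 25150 CPM to 13110 to 18080 CPM in myotubes. In hepatocytes they went from 37040 to 38840 CPM to 41030 to 43030 CPM. Total counts per library were 18366289 to 23221473. Markers of other cell types were also present. Control adipocytes held 281.8 to 334.1 CPM of the summed macrophage markers and 5886 to 6848 CPM of the fibroblast markers. The fibroblast markers stood at 2330 to 2451 CPM in control macrophages and at 1302 to 1550 CPM in control myotubes. In hepatocytes the adipocyte markers went from 6.80 to 9.22 CPM in control to 20.8 to 24.4 CPM with butyrate (2 of 5 called higher). The myotube libraries held hepatocyte and macrophage markers. The summed level of 5 hepatocyte markers was 0 to 0.0440 CPM in control myotubes, 0 to 23.7 CPM with βOHB and 30.96, 553 and 128 CPM in butyrate replicates 1 to 3, equal to 0.0731%, 1.31% and 0.302% of the level in hepatocytes. At the share in butyrate replicate 2 the hepatocyte level would bring 0.414 CPM of *Fos*, 3.13 CPM of *Junb*, 3.56 CPM of *Egr1* and 0.512 CPM of *Myc*. The summed level of 6 macrophage markers ran the other way in myotubes, from 105.4 to 271.2 CPM in control to 42.2 to 104.1 CPM with βOHB and 15.5 to 68.5 CPM with butyrate, and all 6 were called lower with either compound. In fits chosen after seeing the data, 10 of 10 members were called with the butyrate group of myotubes held to replicate 1, the library with the least hepatocyte RNA, and 9, all but *Jun*, with the control group held to replicate 3, the library with the least macrophage RNA. The lone library is assumed there to vary like the other groups. The summed myotube markers in macrophages went from 6.78 to 12.6 CPM in control to 19.7 to 55.4 CPM with butyrate, at most 0.340% of the level in myotubes. With butyrate the summed markers of proliferating cells went from 1395 to 1429 CPM in control to 558 to 657 CPM in macrophages (4 of 4 lower) and from 33.8 to 73.5 CPM to 15.9 to 21.1 CPM in myotubes (3 of 4 lower), while in hepatocytes 2 of 4 were called higher, with a median log2 fold change of 0.77. With βOHB in myotubes 2 of 4, *Mki67* and *Top2a*, were called lower. The endothelial markers, 3 of 4 of them called lower in each case, went with butyrate from 171 to 197 CPM to 111 to 131 CPM in adipocytes, from 130.0 to 153 CPM to 86.2 to 94.7 CPM in macrophages and from 61.2 to 68.8 CPM to 19.3 to 22.8 CPM in hepatocytes. The part of all these marker changes in the results below was not tested. In bulk libraries such as these, fewer cells of a type and less RNA per cell cannot be told apart.

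The first question was how butyrate moved the early genes in each cell type. Log2 fold changes are given ± SE from edgeR throughout. *Fosb*, *Egr1* and *Egr2* rose and *Fosl1*, *Fosl2* and *Myc* fell in all 4 cell types. *Fos* rose in adipocytes, myotubes and hepatocytes and fell in macrophages, *Junb* rose in myotubes and fell in macrophages, *Jun* rose in hepatocytes and fell in myotubes, and *Jund* fell in macrophages and myotubes. Of the 40 effects, 34 passed edgeR's quasi-likelihood test at an adjusted p below 0.05, of which 17 were rises and 17 falls. In adipocytes 7 of 10 members were called, against 61.0% of all genes tested, 4 up (background 30.7%) and 3 down (30.3%). In macrophages 9 were called (65.0%), 3 up (31.9%) and 6 down (33.2%). Myotubes had 10 called (66.5%), 5 up (33.1%) and 5 down (33.4%). Hepatocytes had 8 called (63.5%), 5 up (31.0%) and 3 down (32.4%). As butyrate moved most genes tested, a call alone sets no member apart, and the description below gives direction and size. No background is given for members moving the same way in all 4 cell types, so those counts are descriptions only. The median log2 fold change of the members was -0.13, -0.46, 0.20 and 0.24 in adipocytes, macrophages, myotubes and hepatocytes, beside 0.00, 0.00, 0.00 and -0.01 for all genes. Scaling by library totals alone, without TMM factors, raised the median fold change of all genes by 0.20 on the log2 scale in macrophages and by 0.13 in myotubes, and moved the calls over all genes from 4886 up and 5086 down to 6685 and 3339 in macrophages and from 5083 and 5117 to 6271 and 3873 in myotubes. No called member changed direction under that scaling.

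**Figure D1:**
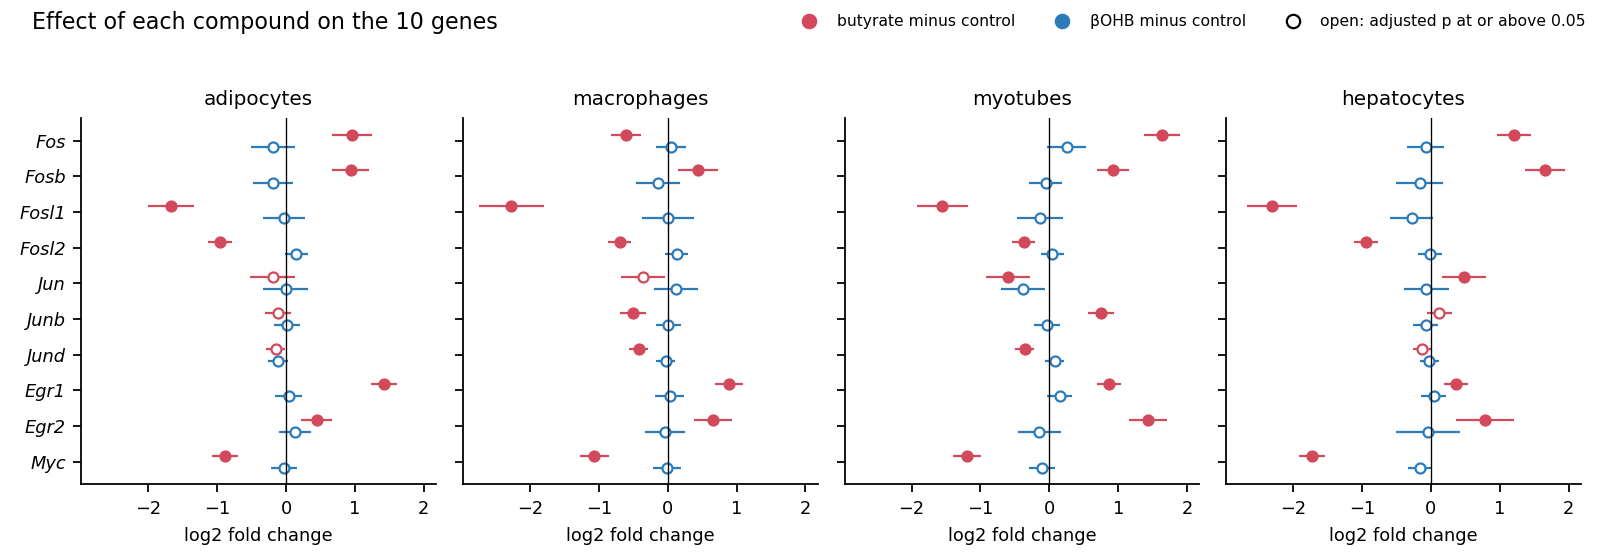
Log2 fold changes of the 10 genes in the 4 cell types, for butyrate and βOHB against control, with 95% intervals from the edgeR fit (3 libraries a group). The butyrate effects run from -2.31 for *Fosl1* in hepatocytes to 1.66 for *Fosb* in hepatocytes, while the βOHB effects lie between -0.38 and 0.25.

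*Fos* (ENSMUSG00000021250, chr12:85473890-85477273 on the plus strand) encodes the founding FOS protein of AP-1 and is a classic immediate early gene. In adipocytes, *Fos* stood at 6.02, 5.08 and 5.28 CPM in the control libraries and at 10.8, 9.98 and 11.0 CPM with butyrate. In macrophages, *Fos* stood at 47.5, 47.5 and 51.3 CPM in the control libraries and at 31.3, 30.4 and 34.2 CPM with butyrate. Every butyrate library lay above every control library in adipocytes and below every control library in macrophages. In myotubes, *Fos* stood at 6.15, 7.05 and 7.04 CPM in the control libraries and at 24.0, 23.8 and 15.2 CPM with butyrate. In hepatocytes, *Fos* stood at 13.3, 14.7 and 13.1 CPM in the control libraries and at 30.0, 34.4 and 30.6 CPM with butyrate. In both, all butyrate libraries were above all control libraries, and in myotubes butyrate replicate 3 was the lowest of its group. The log2 fold change was 0.96 ± 0.15 (edgeR adjusted p = 1.34e-06) in adipocytes, 1.64 ± 0.13 (edgeR adjusted p = 6.86e-12) in myotubes and 1.21 ± 0.13 (edgeR adjusted p = 9.49e-10) in hepatocytes. In macrophages, where the control level was the highest of the 4 cell types, it was -0.61 ± 0.11 (edgeR adjusted p = 2.05e-05). The effect in macrophages differed from that in adipocytes by a log2 difference of 1.57 ± 0.18 (edgeR adjusted p = 6.32e-08), taken as adipocytes minus macrophages. It also differed from myotubes, -2.25 ± 0.18 (edgeR adjusted p = 1.11e-11), and from hepatocytes, -1.82 ± 0.17 (edgeR adjusted p = 3.56e-10), both as macrophages minus the other cell type. These 3 calls held in every alternative tried.

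*Fosb* (ENSMUSG00000003545, chr7:19302696-19310051 on the minus strand) encodes a second FOS protein with a strong transactivating domain. In adipocytes, *Fosb* stood at 2.81, 2.28 and 2.28 CPM in the control libraries and at 4.53, 4.04 and 5.56 CPM with butyrate. In macrophages, *Fosb* stood at 2.25, 1.61 and 1.86 CPM in the control libraries and at 2.74, 2.77 and 2.33 CPM with butyrate. The butyrate libraries stood above the control libraries in both, by a margin of under 1 CPM in macrophages. In myotubes, *Fosb* stood at 5.27, 5.33 and 5.15 CPM in the control libraries and at 10.0, 10.2 and 9.62 CPM with butyrate. In hepatocytes, *Fosb* stood at 1.94, 1.60 and 2.19 CPM in the control libraries and at 5.88, 5.95 and 6.30 CPM with butyrate. Again no butyrate library overlapped its controls. The log2 fold change was 0.94 ± 0.13, 0.45 ± 0.15, 0.92 ± 0.12 and 1.66 ± 0.15 in adipocytes, macrophages, myotubes and hepatocytes, with edgeR adjusted p of 4.4e-07, 0.0121, 3.76e-08 and 2.4e-11. The call in macrophages was lost without control replicate 2 (0.35, edgeR adjusted p = 0.0805) and without the filter on low counts (0.43, edgeR adjusted p = 0.0872). The rise in hepatocytes exceeded that in adipocytes, with adipocytes minus hepatocytes at -0.72 ± 0.20 (edgeR adjusted p = 0.00442), and that in macrophages and myotubes, at -1.21 ± 0.21 (edgeR adjusted p = 2.18e-05) and -0.73 ± 0.19 (edgeR adjusted p = 0.00182) for macrophages and myotubes minus hepatocytes.

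*Fosl1* (ENSMUSG00000024912, chr19:5447547-5455946 on the plus strand) encodes FRA-1, a FOS protein without the transactivating domain of FOS that is itself a target of AP-1. In adipocytes, *Fosl1* stood at 40.5, 32.6 and 31.3 CPM in the control libraries and at 10.4, 9.48 and 12.8 CPM with butyrate. In macrophages, *Fosl1* stood at 8.82, 10.8 and 8.09 CPM in the control libraries and at 1.74, 2.03 and 1.94 CPM with butyrate. All butyrate libraries fell well below the controls. In myotubes, *Fosl1* stood at 17.8, 14.8 and 16.5 CPM in the control libraries and at 4.43, 4.73 and 7.69 CPM with butyrate. In hepatocytes, *Fosl1* stood at 45.3, 35.4 and 39.7 CPM in the control libraries and at 8.64, 7.83 and 7.87 CPM with butyrate. The same separation was present here, with myotube butyrate replicate 3 the nearest to its controls. The log2 fold change was -1.67 ± 0.17, -2.27 ± 0.24, -1.55 ± 0.19 and -2.31 ± 0.18 in adipocytes, macrophages, myotubes and hepatocytes (edgeR adjusted p = 7.23e-10, 1.2e-09, 2.87e-08 and 2e-12). *Fosl1* overlaps *Ccdc85b* on the opposite strand, and whether the counting used strand is not stated. *Ccdc85b* rose in the same comparisons, by 0.36, 0.73, 0.65 and 0.63 on the log2 scale.

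*Fosl2* (ENSMUSG00000029135, chr5:32135801-32157842 on the plus strand) encodes FRA-2, the other FOS protein that lacks this domain. In adipocytes, *Fosl2* stood at 164, 149 and 142 CPM in the control libraries and at 77.2, 74.4 and 82.2 CPM with butyrate. In macrophages, *Fosl2* stood at 132, 130.2 and 129 CPM in the control libraries and at 74.4, 84.8 and 82.0 CPM with butyrate. The butyrate level was close to the same in both cell types and under every control. In myotubes, *Fosl2* stood at 78.9, 80.8 and 79.4 CPM in the control libraries and at 59.8, 54.1 and 70.9 CPM with butyrate. In hepatocytes, *Fosl2* stood at 66.2, 90.4 and 78.9 CPM in the control libraries and at 42.3, 41.3 and 38.9 CPM with butyrate. Myotubes showed the narrowest gap between the groups, although none of their libraries overlapped. The log2 fold change was -0.96 ± 0.09, -0.70 ± 0.09, -0.37 ± 0.09 and -0.94 ± 0.09 in adipocytes, macrophages, myotubes and hepatocytes (edgeR adjusted p = 5.47e-11, 2.6e-08, 0.000439 and 1.87e-10). The fall was smaller in myotubes than in adipocytes, with a log2 difference of -0.59 ± 0.12 (edgeR adjusted p = 0.000342) for adipocytes minus myotubes, and than in hepatocytes, 0.57 ± 0.13 (edgeR adjusted p = 0.000398) for myotubes minus hepatocytes.

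*Jun* (ENSMUSG00000052684, chr4:95049034-95052222 on the minus strand) encodes the partner that gives AP-1 most of its DNA-binding strength. In adipocytes, *Jun* stood at 76.9, 66.0 and 70.6 CPM in the control libraries and at 65.5, 56.8 and 64.2 CPM with butyrate. In macrophages, *Jun* stood at 127, 134 and 134 CPM in the control libraries and at 96.8, 109 and 103 CPM with butyrate. Butyrate libraries were below the controls in both without overlap, yet neither difference passed the test, at -0.20 ± 0.17 (edgeR adjusted p = 0.325) in adipocytes and -0.36 ± 0.16 (edgeR adjusted p = 0.0551) in macrophages. In myotubes, *Jun* stood at 187, 92.6 and 84.9 CPM in the control libraries and at 73.0, 72.5 and 95.3 CPM with butyrate. In hepatocytes, *Jun* stood at 117, 127 and 118 CPM in the control libraries and at 168, 165 and 172 CPM with butyrate. Control replicate 1 of the myotubes stood far above the other libraries of its group and the groups overlapped, whereas in hepatocytes all butyrate libraries were above all controls. *Jun* rose in hepatocytes, with a log2 fold change of 0.48 ± 0.16 (edgeR adjusted p = 0.011). In myotubes the log2 fold change was -0.60 ± 0.16 (edgeR adjusted p = 0.002), but without control replicate 1 it was -0.15 (edgeR adjusted p = 0.212), so that call rests on 1 library. It was also lost with only myotube libraries (-0.58, edgeR adjusted p = 0.0907). In macrophages the fall was called in 4 alternatives, namely limma-voom (-0.36, adjusted p = 0.0458), no filter on low counts (-0.37, edgeR adjusted p = 3.27e-05), the replicate block (-0.36, edgeR adjusted p = 0.036) and only macrophage libraries (-0.32, edgeR adjusted p = 2.53e-05). In adipocytes it was called in 2, without the filter (-0.23, edgeR adjusted p = 0.0196) and with only adipocyte libraries (-0.19, edgeR adjusted p = 0.048). The main fit takes 1 estimate of spread per gene over all groups, so the wide myotube control group enters the SE in every cell type. The SD of log2 CPM of *Jun* was 0.623 in control myotubes. It was 0.041 and 0.084 in control and butyrate macrophages, and 0.11 in both groups of adipocytes. *Jun* overlaps the antisense gene *Junos*, which had a mean of 17.5 counts per library and was called with butyrate in hepatocytes, where it was lower (-1.66, edgeR adjusted p = 0.000315), and in no other cell type.

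*Junb* (ENSMUSG00000052837, chr8:84974484-84978718 on the minus strand) encodes a JUN protein that often restrains JUN. In adipocytes, *Junb* stood at 81.0, 63.3 and 64.1 CPM in the control libraries and at 64.8, 55.7 and 71.7 CPM with butyrate. In macrophages, *Junb* stood at 95.3, 102 and 96.7 CPM in the control libraries and at 63.6, 71.9 and 72.0 CPM with butyrate. The groups overlapped in adipocytes, while in macrophages each butyrate library was below each control. In myotubes, *Junb* stood at 61.3, 61.7 and 60.8 CPM in the control libraries and at 106, 99.8 and 103 CPM with butyrate. In hepatocytes, *Junb* stood at 222, 234 and 205 CPM in the control libraries and at 246, 241 and 232 CPM with butyrate. In myotubes the groups were widely separated upward, and in hepatocytes, which had the highest levels, they overlapped. *Junb* rose in myotubes, with a log2 fold change of 0.75 ± 0.10 (edgeR adjusted p = 5.16e-08), and fell in macrophages, with -0.50 ± 0.09 (edgeR adjusted p = 3.01e-05). In adipocytes and hepatocytes the values were -0.12 ± 0.10 (edgeR adjusted p = 0.303) and 0.12 ± 0.09 (edgeR adjusted p = 0.255). The difference between the effects in macrophages and myotubes was -1.25 ± 0.13 (edgeR adjusted p = 7.84e-09). The myotube effect also differed from that in adipocytes, at -0.87 ± 0.14 (edgeR adjusted p = 7.21e-06) for adipocytes minus myotubes, and from that in hepatocytes, at 0.63 ± 0.13 (edgeR adjusted p = 0.000228) for myotubes minus hepatocytes. The opposite-strand neighbour *Prdx2*, which had a mean of 3073 counts per library, had log2 fold changes of 0.21, 0.12, -0.05 and 0.19 in adipocytes, macrophages, myotubes and hepatocytes.

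*Jund* (ENSMUSG00000071076, chr8:70698949-70700616 on the plus strand) encodes the JUN protein that is present in resting cells and is not a typical early gene. In adipocytes, *Jund* stood at 92.4, 83.0 and 85.1 CPM in the control libraries and at 74.2, 74.1 and 86.3 CPM with butyrate. In macrophages, *Jund* stood at 81.3, 81.6 and 81.4 CPM in the control libraries and at 54.7, 63.0 and 64.7 CPM with butyrate. These groups overlapped in adipocytes and were apart in macrophages. In myotubes, *Jund* stood at 76.5, 93.1 and 92.2 CPM in the control libraries and at 64.6, 67.3 and 72.3 CPM with butyrate. In hepatocytes, *Jund* stood at 327, 310.5 and 296 CPM in the control libraries and at 289, 275 and 292 CPM with butyrate. Butyrate libraries were below the controls in both, narrowly in hepatocytes. *Jund* fell in macrophages, -0.42 ± 0.07 (edgeR adjusted p = 8.02e-06), and myotubes, -0.36 ± 0.07 (edgeR adjusted p = 7.06e-05), on the log2 scale. In adipocytes it stood at -0.15 ± 0.07 (edgeR adjusted p = 0.0719) and in hepatocytes at -0.12 ± 0.07 (edgeR adjusted p = 0.12). Without butyrate replicate 3 the adipocyte value was -0.23 (edgeR adjusted p = 0.0124). Its antisense neighbour *Gm11175* was not called in any cell type.

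**Figure D2:**
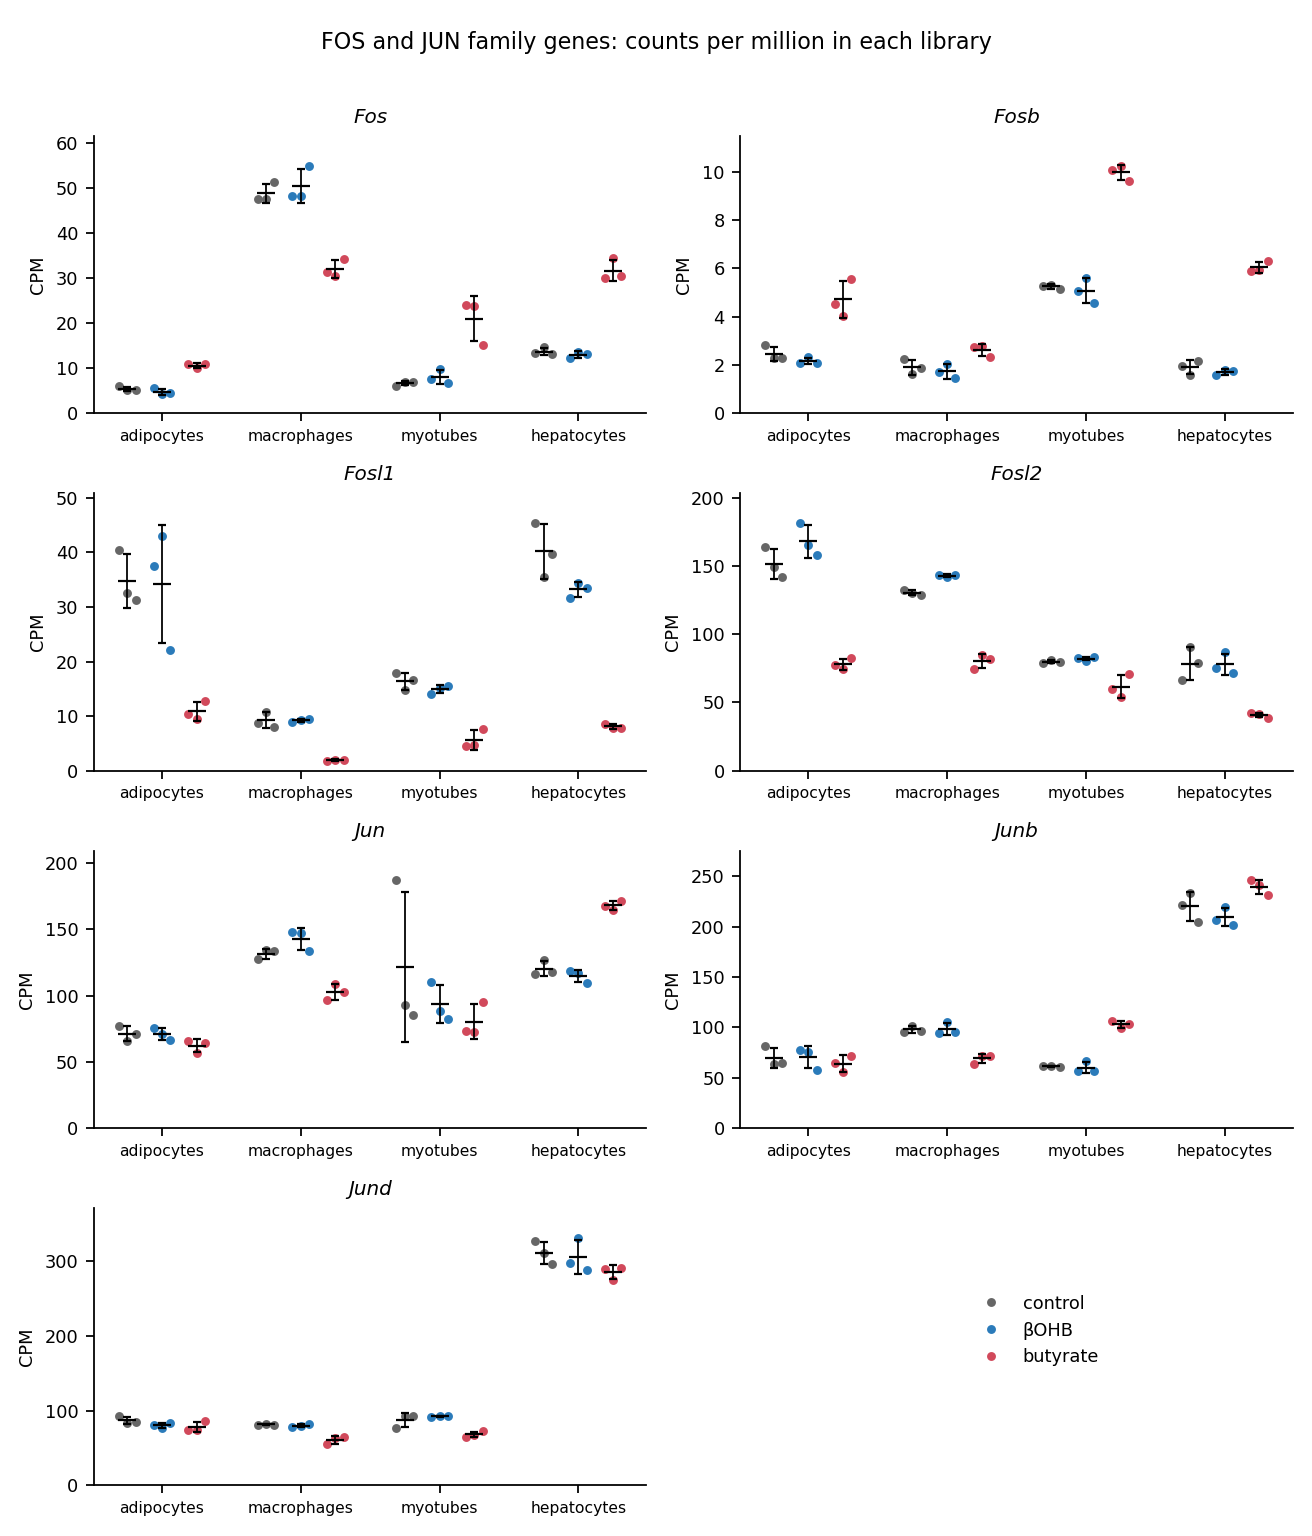
CPM of the FOS and JUN genes in each of the 36 libraries (points), with the mean and SD of the 3 libraries of each group. *Fos* in macrophages runs opposite to the other cell types, from 48.8 ± 2.18 in control to 32.0 ± 2.01 CPM with butyrate, and 1 myotube control library carries *Jun* at 187 CPM.

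*Egr1* (ENSMUSG00000038418, chr18:34859823-34864984 on the plus strand) encodes the zinc finger protein induced by most growth signals. In adipocytes, *Egr1* stood at 38.8, 37.9 and 31.7 CPM in the control libraries and at 94.5, 91.1 and 104 CPM with butyrate. In macrophages, *Egr1* stood at 22.1, 23.1 and 20.8 CPM in the control libraries and at 38.2, 44.1 and 39.5 CPM with butyrate. The butyrate libraries lay far above the controls in both. In myotubes, *Egr1* stood at 125, 128 and 136 CPM in the control libraries and at 272, 250.2 and 188 CPM with butyrate. In hepatocytes, *Egr1* stood at 212, 207 and 215 CPM in the control libraries and at 260.4, 259 and 297 CPM with butyrate. Levels were higher here from the start, myotube butyrate replicate 3 was the lowest of its group, and none of the groups overlapped. *Egr1* rose by a log2 fold change of 1.42 ± 0.10, 0.89 ± 0.10, 0.87 ± 0.09 and 0.37 ± 0.09 in adipocytes, macrophages, myotubes and hepatocytes (edgeR adjusted p = 1.03e-13, 5.82e-09, 1.16e-09 and 0.000728). The rise in adipocytes exceeded those in macrophages, 0.53 ± 0.14 (edgeR adjusted p = 0.00309), myotubes, 0.55 ± 0.13 (edgeR adjusted p = 0.00126), and hepatocytes, 1.06 ± 0.13 (edgeR adjusted p = 1.1e-07). Macrophages minus myotubes stood at 0.02 ± 0.13 (edgeR adjusted p = 0.936), which did not pass.

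*Egr2* (ENSMUSG00000037868, chr10:67535475-67542188 on the plus strand) encodes a related factor with roles in myelination and in the early steps of fat cell differentiation. In adipocytes, *Egr2* stood at 24.3, 20.1 and 17.3 CPM in the control libraries and at 28.4, 25.2 and 30.3 CPM with butyrate. In macrophages, *Egr2* stood at 6.19, 5.85 and 5.45 CPM in the control libraries and at 7.82, 9.28 and 10.4 CPM with butyrate. The separation was narrow in adipocytes and clear in macrophages. In myotubes, *Egr2* stood at 5.09, 4.71 and 4.53 CPM in the control libraries and at 13.2, 10.9 and 14.7 CPM with butyrate. In hepatocytes, *Egr2* stood at 1.82, 2.46 and 1.30 CPM in the control libraries and at 3.34, 3.22 and 3.00 CPM with butyrate. Butyrate libraries were above all controls in both, and hepatocytes held the lowest levels of the 4 cell types. *Egr2* rose by a log2 fold change of 0.44 ± 0.12, 0.66 ± 0.14, 1.44 ± 0.14 and 0.78 ± 0.21 in adipocytes, macrophages, myotubes and hepatocytes (edgeR adjusted p = 0.00153, 0.000147, 2.82e-10 and 0.00191). The rise in myotubes exceeded that in adipocytes, at -0.99 ± 0.18 (edgeR adjusted p = 7.45e-05) for adipocytes minus myotubes, and that in macrophages, at -0.78 ± 0.20 (edgeR adjusted p = 0.00199) for macrophages minus myotubes. The EGR proteins have a pair of corepressors, *Nab1* and *Nab2*. *Nab2* fell in adipocytes (-1.13), macrophages (-0.61) and myotubes (-0.86), and *Nab1* fell in macrophages (-0.26) and hepatocytes (-0.30) and rose in myotubes (0.32), all at edgeR adjusted p of at most 0.00141 with SE of 0.0664 to 0.0872.

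*Myc* (ENSMUSG00000022346, chr15:61985391-61990374 on the plus strand) encodes the growth regulator. In adipocytes, *Myc* stood at 59.0, 52.4 and 53.5 CPM in the control libraries and at 28.1, 27.2 and 33.5 CPM with butyrate. In macrophages, *Myc* stood at 22.0, 23.9 and 21.5 CPM in the control libraries and at 10.6, 11.3 and 10.2 CPM with butyrate. Butyrate levels were below every control in both. In myotubes, *Myc* stood at 33.5, 34.7 and 35.5 CPM in the control libraries and at 13.4, 12.6 and 19.5 CPM with butyrate. In hepatocytes, *Myc* stood at 128, 130.2 and 129.8 CPM in the control libraries and at 37.8, 37.2 and 42.6 CPM with butyrate. Hepatocytes had the highest control level and the widest gap, and myotube butyrate replicate 3 was the highest of its group. *Myc* fell by a log2 fold change of -0.89 ± 0.10, -1.06 ± 0.11, -1.19 ± 0.10 and -1.72 ± 0.10 in adipocytes, macrophages, myotubes and hepatocytes (edgeR adjusted p = 2.16e-09, 7.13e-10, 2.24e-11 and 5.59e-16). The fall in hepatocytes exceeded those in adipocytes, macrophages and myotubes, with differences of 0.83 ± 0.13 (edgeR adjusted p = 8.74e-06), 0.66 ± 0.14 (edgeR adjusted p = 0.000402) and 0.53 ± 0.14 (edgeR adjusted p = 0.00225), each as the other cell type minus hepatocytes.

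**Figure D3:**
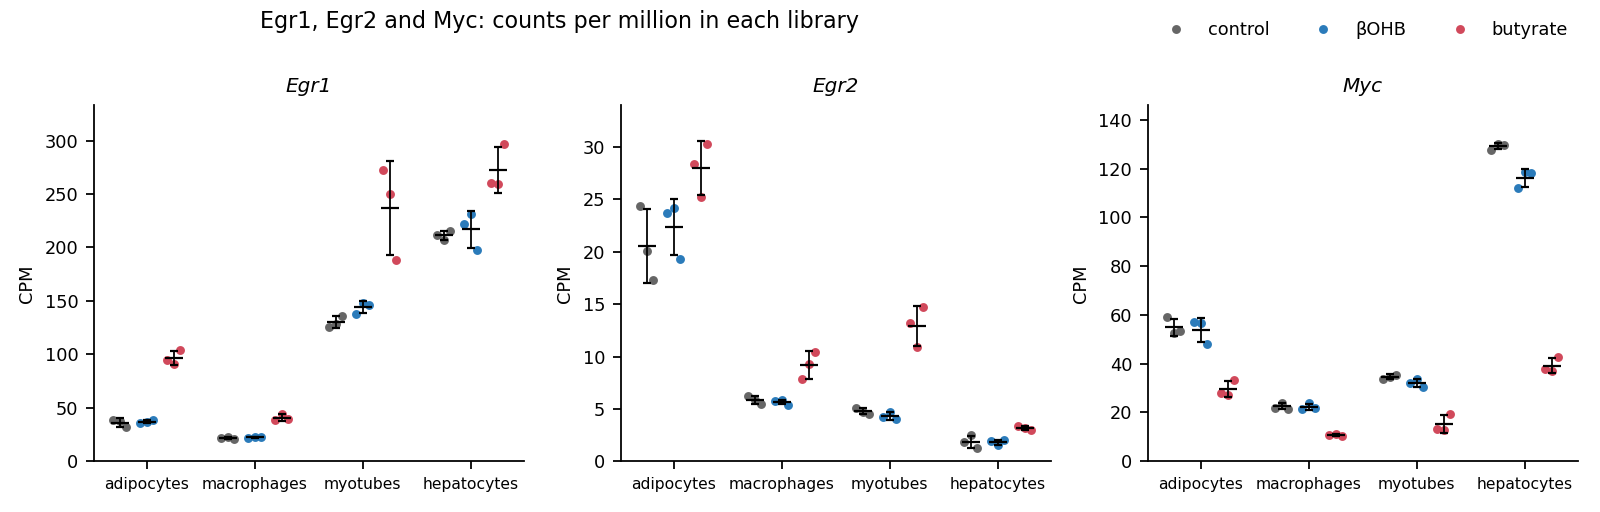
CPM of *Egr1*, *Egr2* and *Myc* in each of the 36 libraries (points), with the mean and SD of the 3 libraries of each group. In adipocytes *Egr1* goes from 36.1 ± 3.89 to 96.7 ± 6.87 CPM with butyrate while *Myc* goes from 55.0 ± 3.54 to 29.6 ± 3.38 CPM.

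The ratio of the CPM of 2 genes within a library needs no scaling between libraries. It is given for 2 pairs whose fold changes are printed above, so it is no separate support for them. *Fos* over *Fosl1* was 0.149 to 0.169 in control adipocytes and 0.857 to 1.05 with butyrate. With butyrate it was 15.0 to 18.0 in macrophages (control 4.39 to 6.34), 1.97 to 5.41 in myotubes (control 0.344 to 0.478) and 3.48 to 4.39 in hepatocytes (control 0.293 to 0.415). *Fos* thus gained on *Fosl1* in macrophages too, where both genes fell. With butyrate, *Egr1* over *Myc* was 3.12 to 3.36 in adipocytes (control 0.591 to 0.724) and 3.60 to 3.89 in macrophages (control 0.964 to 1.00). It was 9.64 to 20.3 in myotubes (control 3.70 to 3.83) and 6.88 to 6.98 in hepatocytes (control 1.59 to 1.66). In no cell type did the butyrate and control ranges of either ratio overlap.

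To compare levels between genes, CPM were divided by the length of the union of exons in kb. *Jund* had the highest level per kb of the 10 genes in the control libraries of all 4 cell types, at 52.0 ± 2.95, 48.8 ± 0.0916, 52.3 ± 5.60 and 186.5 ± 9.09 CPM per kb (SD, n = 3) in adipocytes, macrophages, myotubes and hepatocytes. With the length of the longest transcript instead, *Junb* led in macrophages, at 54.1 against 48.8 CPM per kb. *Fosb* had the lowest level per kb in control libraries under both lengths. In butyrate-treated myotubes *Egr1* was first, at 52.8 CPM per kb, and second to *Junb*, at 56.9 CPM per kb, with the longest transcript.

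On the same scale, the make-up of the FOS family differed between control and butyrate libraries. In control hepatocytes *Fosl1* made up 58.0 ± 5.58% (SD, n = 3) and *Fos* 17.2 ± 1.43% of the summed CPM per kb of the 4 FOS genes. With butyrate, *Fos* made up 59.4 ± 2.26% and *Fosl1* 17.7 ± 1.39%, so that the order of the pair was turned over. In myotubes *Fos* went from 14.4 ± 1.36% to 45.3 ± 9.98% and *Fosl1* from 40.2 ± 2.88% to 14.2 ± 4.93%. In adipocytes *Fos* went from 6.55 ± 0.277% to 24.2 ± 1.10%, and *Fosl1* from 48.1 ± 1.64% to 28.6 ± 2.09%. Macrophages were the one cell type in which *Fos* held the largest share already in control, at 53.1 ± 2.06%, and it stood at 58.5 ± 2.22% with butyrate. The share of *Fosl2* was 44.2 ± 1.56% and 43.2 ± 1.44% in control and butyrate adipocytes and 34.5 ± 0.885% and 35.7 ± 1.88% in macrophages, although its level fell in both. In myotubes its share went from 41.2 ± 1.54% to 32.5 ± 5.23% and in hepatocytes from 23.9 ± 4.30% to 18.6 ± 0.814%. Among the JUN genes the widest difference was in myotubes, where *Junb* went from 22.9 ± 2.25% to 40.5 ± 2.46%. In hepatocytes *Jun* went from 11.8 ± 0.597% to 16.1 ± 0.275% and *Jund* from 58.3 ± 1.38% to 52.2 ± 0.905%.

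**Figure D4:**
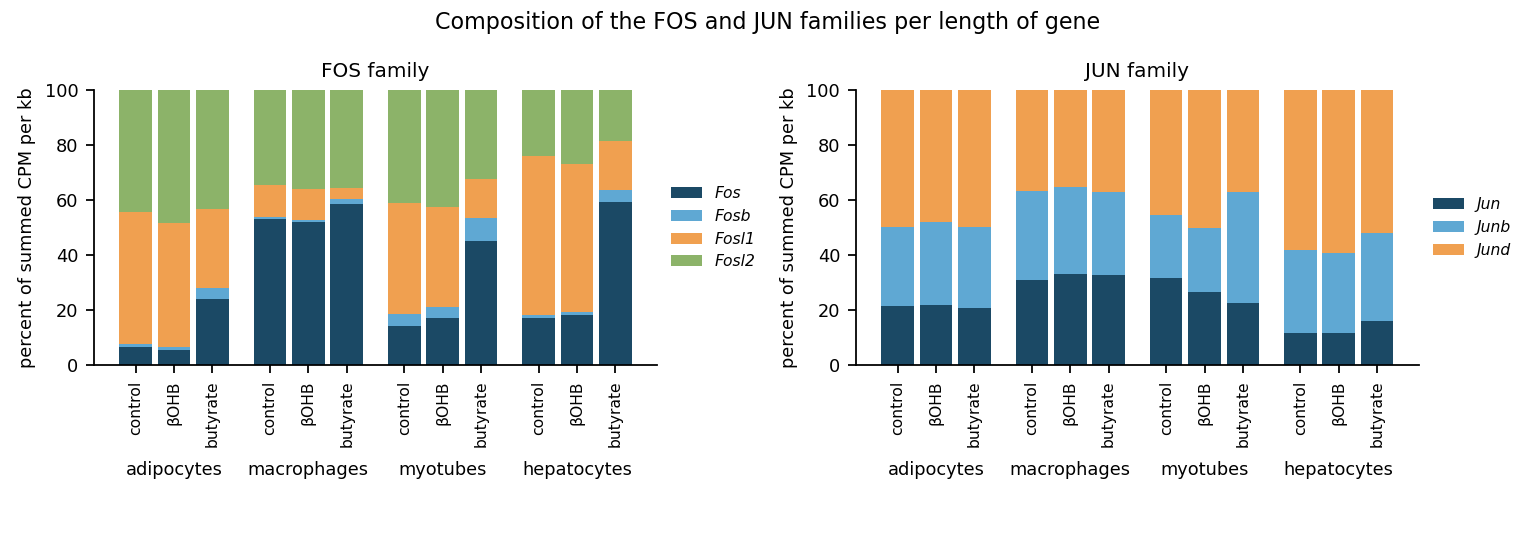
Share of each gene in the summed CPM per kb (union of exons) of the FOS genes and of the JUN genes, as the mean of the 3 libraries of each of the 12 groups. The *Fos* share in hepatocytes goes from 17.2% in control to 59.4% with butyrate, and the *Junb* share in myotubes from 22.9% to 40.5%.

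The next question was whether βOHB moved these genes. None of the 10 members was called by edgeR with βOHB in any cell type, at a background of 0.00652% of genes in adipocytes, 0% in macrophages, 2.91% in myotubes and 0.00652% in hepatocytes. At an unadjusted p below 0.05, 1 of the 40 effects passed, and over all genes 1097, 358, 2104 and 845 did in the 4 cell types. Limma-voom and DESeq2 called 0 members as well. The 40 log2 fold changes lay between -0.38 and 0.25, with a median absolute value of 0.069 and a smallest adjusted p of 0.286. The lowest and highest bounds of the 95% intervals were -0.70 and 0.54, and 38 of the 40 intervals lay within a 1.5-fold change either way. The exceptions were *Jun* in myotubes, at -0.38 (95% interval -0.70 to -0.06), and *Fosl1* in hepatocytes, at -0.27 (95% interval -0.59 to 0.04). *Jun* in βOHB-treated myotubes stood at 109.9, 88.5 and 82.5 CPM, beside the controls of which replicate 1 stood apart. Over the alternatives its log2 fold change ran from -0.58 to 0.14. It was 0.08 without control replicate 1 (edgeR adjusted p = 0.957), and it was called without control replicate 3 (-0.58, edgeR adjusted p = 0.0269) and without the filter on low counts (-0.42, edgeR adjusted p = 3.94e-05). *Fosl1* in hepatocytes stood at 31.7, 34.4 and 33.6 CPM with βOHB.

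For the other βOHB levels, ranges over the 3 libraries are given. *Fos* stood at 4.23 to 5.60 CPM in adipocytes, 48.2 to 54.9 CPM in macrophages, 6.74 to 9.82 CPM in myotubes and 12.2 to 13.6 CPM in hepatocytes. *Egr1* stood at 35.5 to 38.8 CPM, 21.7 to 22.9 CPM, 138 to 149 CPM and 198 to 231 CPM in adipocytes, macrophages, myotubes and hepatocytes. *Myc* stood at 48.1 to 57.1 CPM, 21.5 to 23.7 CPM, 30.6 to 33.8 CPM and 112 to 118 CPM in the same order. None of these levels was called against its control by edgeR. The βOHB libraries lay above every control for *Egr1* in myotubes and *Fosl2* in macrophages. They lay below every control for *Myc* and *Fosl1* in hepatocytes. For every other member and cell type they overlapped the controls.

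Butyrate and βOHB share a carbon chain of the same length, and βOHB carries in addition a hydroxyl group on the β carbon. As both comparisons above use the same control libraries, the compounds were compared directly at the same dose and time, which made 1 pair of compounds in 4 cell types. Of the 40 differences 34 were called, 17 higher and 17 lower with butyrate. In adipocytes 7 of 10 members were called (59.5% of all genes), in macrophages 10 (64.7%), in myotubes 9 (66.0%) and in hepatocytes 8 (63.5%). For *Fos* the log2 difference of butyrate minus βOHB was 1.14 ± 0.15 (edgeR adjusted p = 1.1e-07) in adipocytes, -0.66 ± 0.11 (edgeR adjusted p = 6.76e-06) in macrophages, 1.39 ± 0.13 (edgeR adjusted p = 1.41e-10) in myotubes and 1.28 ± 0.13 (edgeR adjusted p = 2.45e-10) in hepatocytes. *Egr1* was higher with butyrate by 1.38 ± 0.10, 0.86 ± 0.10, 0.72 ± 0.09 and 0.33 ± 0.09 (edgeR adjusted p at most 0.00212). *Myc* was lower, at -0.86 ± 0.10, -1.06 ± 0.11, -1.09 ± 0.10 and -1.57 ± 0.10 (edgeR adjusted p at most 4.85e-09). *Fosl1* was lower as well, at -1.64 ± 0.17, -2.27 ± 0.24, -1.42 ± 0.19 and -2.03 ± 0.18 (edgeR adjusted p at most 1.7e-07). The remaining FOS genes and *Egr2* were also called in each cell type, *Fosb* and *Egr2* higher and *Fosl2* lower with butyrate.

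The 6 differences between the compounds that did not pass were all in JUN genes. In adipocytes they were *Jun* at -0.19 (95% interval -0.52 to 0.14), *Junb* at -0.14 (95% interval -0.32 to 0.05) and *Jund* at -0.04 (95% interval -0.18 to 0.11). In myotubes *Jun* stood at -0.22 (95% interval -0.55 to 0.10). *Jun* and *Junb* in adipocytes were each called in 1 of 15 alternatives and *Jun* in myotubes in 1 of 16. In hepatocytes *Junb* stood at 0.19 (95% interval 0.01 to 0.37), and was called in 6 of 15 alternatives, at 0.20 to 0.27 with adjusted p of 0.00445 to 0.0403, while *Jund* stood at -0.10 (95% interval -0.24 to 0.03). Missing the threshold does not show that the compounds acted alike, although a 1.5-fold change lies outside all 6 intervals. *Egr2* in adipocytes was called at 0.32 ± 0.12 (edgeR adjusted p = 0.0187) but not without βOHB replicate 3 (0.23, edgeR adjusted p = 0.128) or butyrate replicate 3 (0.26, edgeR adjusted p = 0.0956). *Jun* in macrophages was called at -0.47 ± 0.16 (edgeR adjusted p = 0.0116) but not without butyrate replicate 1 (-0.41, edgeR adjusted p = 0.0577) or with library totals alone (-0.25, edgeR adjusted p = 0.213).

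Whether the butyrate effect differed among the cell types was tested with the 4 effects together and in pairs. All 10 members differed among the 4 cell types, at a background of 74.5% of genes, and 0 did so for βOHB, at 0.978%. For βOHB, limma-voom and DESeq2 likewise called none, and 0 members passed an unadjusted p below 0.05. By pairs of cell types, 4 members differed between adipocytes and macrophages (36.6% of all genes) and 5 between adipocytes and myotubes (36.8%). Between adipocytes and hepatocytes 5 differed (41.4%) and between macrophages and myotubes also 5 (43.5%). Hepatocytes differed from macrophages in 7 members (44.4%) and from myotubes in 8 (48.4%). Of the 34 pairwise calls, 25 held in every alternative and 9 were lost in at least 1. The 9 were in *Fosb*, *Fosl1*, *Fosl2*, *Jun*, *Junb*, *Jund* and *Egr2*. *Jun* moved in opposite directions in myotubes and hepatocytes, with a difference of -1.08 ± 0.23 (edgeR adjusted p = 0.000269), but the fall in myotubes rests on control replicate 1.

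The levels without treatment were also compared. *Fos* was higher in macrophages than in adipocytes with a log2 difference of -3.16 ± 0.13 (edgeR adjusted p = 1.26e-19) for adipocytes minus macrophages. *Egr1* was highest in hepatocytes and lowest in macrophages, *Egr2* highest in adipocytes and lowest in hepatocytes, and *Myc* highest in hepatocytes and lowest in macrophages. Between control adipocytes and macrophages 9 of 10 members differed (77.5% of genes), between adipocytes and myotubes 7 (78.2%), between adipocytes and hepatocytes 8 (81.1%), between macrophages and myotubes 7 (82.2%), between macrophages and hepatocytes 8 (82.1%) and between myotubes and hepatocytes 8 (86.6%), by edgeR. *Egr1* and *Myc* differed in 6 of 6 pairs, and *Jun* and *Jund* in 3 of 6. For *Jund* the 3 were those with hepatocytes. The difference in *Fosb* between adipocytes and macrophages of 0.36 ± 0.15 (edgeR adjusted p = 0.0452) was lost in 7 alternatives, among them without adipocyte control replicate 1 (0.25) and without macrophage control replicate 2 (0.26) or 3 (0.34). That in *Fosl2* of 0.22 ± 0.08 (edgeR adjusted p = 0.0218) was lost without adipocyte control replicate 1 (0.16) or macrophage control replicate 3 (0.21).

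With the 12 groups of each gene put in order of mean CPM, many neighbours were not separated by their libraries. *Fos* went from 50.5 ± 3.81 CPM in macrophages with βOHB down to 4.76 ± 0.735 CPM in adipocytes with βOHB, and 5 of 11 neighbouring pairs of groups overlapped. *Fosb* went from 9.97 ± 0.318 CPM in myotubes with butyrate to 1.71 ± 0.114 CPM in hepatocytes with βOHB, with 8 of 11 overlapping. *Fosl1* spanned the widest range, a 21.1-fold difference between control hepatocytes at 40.2 ± 4.98 CPM and macrophages with butyrate at 1.90 ± 0.149 CPM, with 6 overlapping. The JUN genes spanned less. *Jun* had a 2.70-fold range, *Junb* 4.00-fold and *Jund* 5.12-fold, with 8, 9 and 8 overlapping pairs. *Fosl2* spanned 4.12-fold with 7 overlapping, from adipocytes with βOHB to hepatocytes with butyrate. *Egr1* spanned 12.4-fold from hepatocytes with butyrate to control macrophages with 6 overlapping. *Egr2* spanned 15.5-fold from adipocytes with butyrate to hepatocytes with βOHB, and *Myc* 12.0-fold from control hepatocytes to macrophages with butyrate, each with 4 overlapping.

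Other genes of the network were counted in fixed lists, whose backgrounds for each cell type are those given above. No background is given for genes moving the same way in all 4 cell types, so those counts are descriptions only. Of the AP-1 dimer partners, 9 of 11 were tested, and 3 rose and 5 fell in adipocytes, 2 rose and 4 fell in macrophages, 3 rose and 2 fell in myotubes and 3 rose and 5 fell in hepatocytes. The median log2 fold change was -0.28, 0.10, 0.14 and -0.70. *Atf3*, a stress-induced factor that pairs with JUN, rose in adipocytes (0.96), myotubes (1.07) and hepatocytes (2.46) and fell in macrophages (-0.78), the same directions as *Fos*. In hepatocytes *Atf3* stood at 35.3 ± 1.64 CPM in control and 194 ± 3.43 CPM with butyrate (SD, n = 3). *Atf4*, the factor of the amino acid response, fell in adipocytes (-1.02), macrophages (-0.86), myotubes (-0.93) and hepatocytes (-0.86). *Mafg*, a small MAF protein, also fell in all 4, by log2 fold changes of -0.76 in adipocytes, -1.31 in macrophages, -0.37 in myotubes and -1.24 in hepatocytes. *Jdp2*, a dimerisation partner that represses AP-1, rose in adipocytes (0.78) and macrophages (0.89) and fell in hepatocytes (-1.22). *Batf*, called in adipocytes, stood at 0.272 CPM in control and 0.0738 CPM with butyrate, a few reads or fewer per library, so no fold change is given. *Maff* rose in myotubes (0.67). For the changes named here, *Batf* included, the SE was 0.0485 to 0.661 and the edgeR adjusted p at most 0.0206.

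Of the other immediate early genes, 25 of 26 were tested, and 14 rose and 5 fell in adipocytes, 12 rose and 7 fell in macrophages, 17 rose and 3 fell in myotubes and 15 rose and 5 fell in hepatocytes. The medians were 0.35, 0.26, 0.56 and 0.54, and *Nr4a1*, *Nr4a3*, *Klf2*, *Dusp5*, *Ccn1* and *Arc* rose in all 4 cell types. The largest changes in adipocytes were in *Arc* (2.64), *Ier3* (1.25), *Klf2* (1.03) and *Nr4a1* (1.03). In macrophages they were in *Nr4a3* (2.36), *Arc* (1.82), *Nr4a1* (1.39) and *Sgk1* (-1.28), of which *Sgk1*, a kinase induced by serum and glucocorticoids, fell. In myotubes they were in *Arc* (1.87), *Nr4a1* (1.82), *Dusp5* (1.26) and *Ier3* (1.11), and in hepatocytes in *Nr4a3*, *Atf3* (2.46), *Egr3* and *Klf2* (1.82). *Arc*, best known from neurons, stood in adipocytes at 9.82 ± 2.97 CPM in control and 61.0 ± 6.50 CPM with butyrate. *Nr4a3*, an orphan nuclear receptor, stood in hepatocytes at 0.102 ± 0.0350 CPM in control and 7.33 ± 0.517 CPM with butyrate, and *Egr3* at 0.165 ± 0.132 CPM and 0.760 ± 0.265 CPM. Their controls held a few reads per library, so no fold change is given. For the changes named here, these included, the SE was 0.0929 to 0.637 and the edgeR adjusted p at most 0.00325.

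The MYC network holds MAX, the MXD repressors that compete with MYC for MAX, and related factors. Of its 14 genes tested, 5 rose and 4 fell in adipocytes, 7 rose and 3 fell in macrophages, 7 rose and 4 fell in myotubes and 6 rose and 3 fell in hepatocytes. *Mxi1* rose and *Mxd4* and *Mnt* fell in all 4 cell types. The largest changes in adipocytes were in *Mxd3* (1.76), *Mlxip* (0.74), *Fbxw7* (0.59) and *Mxd4* (-0.57) and in hepatocytes in *Mxd3* (2.62), *Mxd1* (2.03), *Mxd4* (-1.24) and *Mycn* (1.22). In myotubes they were in *Mlxipl* (2.58), *Mxd3* (2.27), *Mycn* (1.25) and *Mxd4* (-0.89). In macrophages *Mxd1* rose from 18.5 to 71.3 CPM (1.95) and *Mycl* from 1.03 to 2.46 CPM (1.23). *Mlxipl* and *Mycn*, also called there, stood at 0.0427 and 0.0144 CPM in control, a few reads or fewer, and at 1.159 and 0.328 CPM with butyrate, so no fold change is given. For the changes named here, those without a fold change included, the SE was 0.0684 to 0.936 and the edgeR adjusted p at most 0.0172.

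Of the 20 targets of MYC in ribosome biogenesis and growth, 1 rose and 15 fell in adipocytes, 3 rose and 12 fell in macrophages, 2 rose and 15 fell in myotubes and 3 rose and 13 fell in hepatocytes. The medians were -0.58, -0.24, -0.40 and -0.37, and 10 genes fell in all 4 cell types, among them *Ncl* and *Npm1*, which encode nucleolar proteins, and *Cdk4*, which encodes a cell cycle kinase. The largest changes were in *Srm* (-1.38), *Eif4a1* (-1.26), *Nop56* (-1.25) and *Mrto4* (-1.05) in adipocytes and in *Eif4a1* (-0.88), *Bop1* (0.86), *Srm* (-0.67) and *Cdk4* (-0.67) in macrophages. In myotubes they were in *Eif4a1* (-1.11), *Srm* (-0.81), *Nop56* (-0.74) and *Ncl* (-0.62), and in hepatocytes in *Eif4a1* (-1.37), *Nop56* (-1.27), *Polr1b* (-0.84) and *Ncl* (-0.79). *Eif4a1*, an RNA helicase of translation initiation, stood in hepatocytes at 996 ± 34.6 CPM in control and 385 ± 1.22 CPM with butyrate. *Bop1*, which takes part in making the large ribosomal subunit, rose in macrophages. For these changes the SE was 0.0657 to 0.123 and the edgeR adjusted p at most 1.31e-05. The summed proliferation markers given above were lower with butyrate in macrophages and myotubes. In hepatocytes 2 of the 4 were called higher, at a summed 7.50 to 12.5 CPM in control and 17.5 to 19.5 CPM with butyrate. In adipocytes 0 of the 4 were called. The part of proliferation in the fall of *Myc* and of these genes was not tested.

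Of 11 known AP-1 target genes, 3 rose and 3 fell in adipocytes, 2 rose and 1 fell in macrophages, 5 rose and 1 fell in myotubes and 1 rose and 2 fell in hepatocytes. The largest changes were in *Il6* (-2.65), *Plaur* (-1.19), *Spp1* (1.13) and *Plau* (0.97) in adipocytes and in *Plau* (1.24), *Ccl2* (0.62) and *Timp1* (-0.28) in macrophages. In myotubes they were in *Il6* (-1.30), *Mmp3* (1.17), *Ccl2* (0.82) and *Hbegf* (0.52). The butyrate group of myotubes varied widely for *Mmp3*, at 17.1 ± 14.6 CPM, and for *Ccl2*, at 63.3 ± 41.9 CPM. In hepatocytes *Timp1* fell (-0.57) and *Spp1* rose (0.44), while *Il6* was at 0 in all 3 butyrate libraries and at 0.101 CPM in control, with no fold change given. Of these lists of network and target genes *Mmp13* was the 1 gene called with βOHB, in myotubes (-1.43, edgeR adjusted p = 0.0218), beside the lower macrophage and proliferation markers given above. Their part in it was not tested, and with only myotube libraries 0 genes were called with βOHB in place of 446. For the butyrate changes named here, *Il6* in hepatocytes included, the SE was 0.113 to 1.44 and the edgeR adjusted p at most 0.0402.

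The genes whose mean log2 CPM over the 12 groups was most like that of each member were found by Pearson r, up to 3 for each, as a description over groups that share libraries and cell types. For *Fos* they were *Rassf5* (0.979), *Ctnnb1* (0.967) and *Dnase2a* (0.966), for *Fosb* *Srp54a* (0.981), *Sec14l5* (0.976) and *Otub2* (0.974), for *Fosl1* *Ndufaf8* (0.971), *Rad51d* (0.970) and *Mrpl11* (0.967) and for *Fosl2* *Sumo2* (0.962), *Parp11* (0.957) and *Lipo3* (0.951). For *Jun* they were *Sart3* (0.965), *Oma1* (0.959) and *Tsc1* (0.925), for *Junb* *Shank2* (0.977) and *F10* (0.976) and for *Jund* *Commd1* (0.991), *Rpl18* (0.990) and *Fbxw9* (0.989). For *Egr1* they were *Tcea3* (0.990), *Abtb2* (0.987) and *Zhx3* (0.985), for *Egr2* *Slc25a35* (0.993), *Phyhipl* (0.988) and *Kazald1* (0.978) and for *Myc* *Cops7a* (0.997), *Timm13* (0.991) and *Mrps18b* (0.983). No member was among the nearest genes of another.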

How the data were processed

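The deposited table holds estimated counts per gene for 36 libraries, which the authors made with Salmon 1.2.1 against the GENCODE transcripts of GRCm38.p6 and tximport 1.16.1 from paired reads of a BGISEQ-500 sequencer. Their methods mention scaling to library size and transcript length in this step. As 55.6% of the values above 0 are whole and totals per library run from 18366289 to 23221473 (median 22177562), the values were taken as unscaled. They were rounded to whole numbers. No sample column was left unused (0). Symbols, positions and lengths came from GENCODE M21 (GRCm38), which holds 54094 of the 54347 gene identifiers.

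Genes above 1 CPM in at least 6 libraries were kept (15340). They were fitted in 1 model over the 12 groups with edgeR 4.0.16 (R 4.3.3, TMM, quasi-likelihood test, 24 residual degrees of freedom). Benjamini-Hochberg adjustment ran over all genes tested, with calls at an adjusted p below 0.05. A prior count of 2 was used for the levels in log2 CPM only. With 3 libraries against 3, an exact permutation test cannot go below p = 0.1, so none was used. A test on simulated data, with a small set of genes changed in the butyrate adipocytes only and a common spread, recovered known changes. It does not cover data in which most genes move, as with butyrate here. The alternatives were limma-voom (limma 3.58.1), DESeq2 1.42.0, other scalings and filters, another prior count, a replicate block, fits of single cell types and leaving out each library. Holding the myotube control or butyrate group to 1 library was added after seeing the data.

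The members and the gene lists were chosen with earlier results of these data known. All members were described, and from each list up to 4 called genes of largest butyrate change per cell type were named, together with up to 3 genes most like each member. Some of the genes named by this rule are not reported here. Lists share *Atf3*, *Maff* and *Zfp36*. Library pairs within groups differed by more than sampling noise (chi-square per degree of freedom 2.55 to 42.4 over 36 pairs), so none was treated as the same library deposited again. This does not show whether they came from separate cultures. Precision is limited by 3 libraries per group. A planned protein comparison was not run.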

Additional observations from a re-analysis of the deposited data

Results flagged for a closer look

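The butyrate effect differed among the 4 cell types for each of the 10 members in edgeR's test of the differences, with adjusted p of 6.62e-12 for *Fos*, 0.000109 for *Fosb*, 0.0237 for *Fosl1*, 0.000285 for *Fosl2*, 0.00093 for *Jun*, 2.63e-08 for *Junb*, 0.0185 for *Jund*, 6.5e-07 for *Egr1*, 0.000206 for *Egr2* and 2.25e-05 for *Myc*. In 5 cases a member was called in opposite directions in a pair of cell types and the difference itself was called. For *Fos* the log2 difference was 1.57 for adipocytes minus macrophages, -2.25 for macrophages minus myotubes and -1.82 for macrophages minus hepatocytes. For *Junb* it was -1.25 for macrophages minus myotubes. For *Jun* it was -1.08 for myotubes minus hepatocytes, where the fall in myotubes was lost without control replicate 1.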

How the results depend on the processing

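Of the 240 log2 differences of the members, the values under 3880 alternatives stayed on the same side of the threshold in 3729, gained the call in 69 and lost it in 81. In 98 of the 3729 an uncalled value changed sign. In the 1 remaining case a value turned and was called: *Jun* in control myotubes minus hepatocytes, at 0.01 with all libraries, was -0.44 (edgeR adjusted p = 0.000285) without myotube control replicate 1. Leaving out single libraries gave it a range of -0.44 to 0.21. Of 300 counts of called members under alternatives, 297 stayed within 1.5 times. The count for βOHB in myotubes was 1 in place of 0 without the filter on low counts (*Jun*, -0.42, edgeR adjusted p = 3.94e-05) and 0 to 1 when single libraries were left out (*Jun* without control replicate 3, -0.58, edgeR adjusted p = 0.0269). *Jun* with βOHB in myotubes was above 0 in 2 alternatives, at 0.08 without control replicate 1 and 0.14 with the control held to replicate 3. The count of members whose βOHB effect differed among cell types was 1 without the filter. Members called with butyrate ranged over 7 to 8 in adipocytes, 8 to 10 in macrophages, 9 to 10 in myotubes and 8 to 9 in hepatocytes, and those whose butyrate effect differed among cell types over 9 to 10.

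The labels do not say whether the replicate numbers pair the libraries. Correlations of same-numbered deviations ran from -0.107 to 0.225 in adipocytes, -0.063 to 0.085 in macrophages, -0.264 to 0.273 in myotubes and -0.065 to 0.013 in hepatocytes. Those of differently numbered libraries were not computed, so these values do not settle whether the libraries were paired. With a replicate block 7, 10, 10 and 8 members were called with butyrate, the addition being *Jun* in macrophages (-0.36, edgeR adjusted p = 0.036).

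Counts over all genes called in either direction changed by more than 1.5 times for βOHB and not for butyrate against control. With library totals alone the falls with butyrate in macrophages went from 5086 to 3339. In adipocytes 1 gene was called, and 3 with DESeq2, 192 without the filter and 0 with limma-voom, RLE factors, the replicate block or only adipocyte libraries. In hepatocytes 1 was called, and 2 with DESeq2 and 48 without the filter. In macrophages 0 were called, and 2 with DESeq2, 35 without the filter and 5 with only macrophage libraries. In myotubes 446 were called, 895 without the filter, 0 with only myotube libraries and 2 with the control held to replicate 3. For the difference among cell types 150 were called, 342 with DESeq2, 87 with limma-voom, 787 without the filter and 75 with the replicate block.

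The level of a group in log2 CPM moved by -0.057 to 0 with a prior count of 0.5 and by -0.23 to 0.252 with library totals alone, beyond the SD in 51 of 120 groups of genes. Levels per kb moved beyond the SD in 70 of 120 with the longest transcript. With 3 libraries a group, the SE of the butyrate effect was widest for *Fosl1* in macrophages (0.24), at 1.90 ± 0.149 CPM with butyrate, and for *Egr2* in hepatocytes (0.21), at 1.86 ± 0.580 CPM in control.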

Other observations

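The kinases and factors that lie upstream of the early genes, namely the MAP kinase cascades, serum response factor with its partners, and CREB, were counted as a list of 20. Of these, 10 rose and 7 fell in adipocytes, 8 rose and 8 fell in macrophages, 11 rose and 4 fell in myotubes and 10 rose and 9 fell in hepatocytes with butyrate. Among the genes that rose in all 4 cell types were *Elk1*, a partner of serum response factor, and the kinases *Mapk8*, *Mapk9*, *Mapk14* and *Rps6ka5*. *Elk4*, *Map2k2* and *Map2k7* fell in all 4. The largest log2 fold changes were in *Rps6ka1* (1.76), *Map2k7* (-1.74), *Mapk9* (0.99) and *Rps6ka5* (0.80) in adipocytes and in *Map2k7* (-1.78), *Rps6ka5* (1.18), *Mapk9* (0.99) and *Elk4* (-0.86) in macrophages. In myotubes they were in *Rps6ka1* (1.50), *Map2k7* (-1.30), *Rps6ka5* (0.99) and *Mapk14* (0.86), and in hepatocytes in *Map2k7* (-1.90), *Rps6ka5* (1.48), *Elk3* (-1.12) and *Elk4* (-0.94). For these the SE was 0.0391 to 0.173 and the edgeR adjusted p at most 1.35e-06. *Map2k7*, which activates the JNK kinases, stood in adipocytes at 49.2 ± 1.05 CPM in control and 14.7 ± 0.727 CPM with butyrate (SD, n = 3), while *Mapk9*, a JNK gene, stood at 71.9 ± 1.29 CPM in control and 143 ± 1.52 CPM with butyrate.

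Many early gene mRNAs carry AU-rich elements, and 7 genes of the decay factors that bind them were tested. Of these, 0 rose and 5 fell in adipocytes, 1 rose and 4 fell in macrophages, 1 rose and 5 fell in myotubes and 2 rose and 3 fell in hepatocytes. *Zfp36*, which encodes tristetraprolin and is itself an early gene, fell in adipocytes (-0.62) and macrophages (-0.85) and rose in myotubes (0.52) and hepatocytes (0.89). *Zfp36l2* and *Khsrp* fell in all 4 cell types. The largest changes in adipocytes were in *Zfp36* (-0.62), *Zfp36l2* (-0.58), *Khsrp* (-0.42) and *Tia1* (-0.32), and in macrophages in *Zfp36l2* (-1.22), *Zfp36* (-0.85), *Khsrp* (-0.34) and *Zfp36l1* (-0.27). In myotubes they were in *Tia1* (-0.79), *Khsrp* (-0.57), *Zfp36* (0.52) and *Zfp36l1* (-0.38), and in hepatocytes in *Zfp36l2* (-0.97), *Zfp36* (0.89), *Zfp36l1* (-0.47) and *Khsrp* (-0.29). For these the SE was 0.0526 to 0.114 and the edgeR adjusted p at most 0.00172. With βOHB no gene of either list was called in any cell type by edgeR, and 8 of 80 and 4 of 28 effects passed an unadjusted p below 0.05.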
